A study of Mus musculus with 11 samples.

Results

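The cells described here are those of the lesser epithelial ridge (LER), the epithelium on the lateral side of the cochlear duct floor, at embryonic day 14 (E14). They were chosen by a gate on their deposited values, which are natural logarithms of 1 plus 10000 times a gene's share of the unique molecular identifiers (UMIs) of a cell. A cell was taken when Bmp4 was at 1.0 or more, at least 1 of Fbln2, Bmper and Lmo3 was above 0, Atoh1 was at 0 and Oc90 was under 2.5. This gave 451 of the 5253 E14 cells, 236 of 2198 in replicate 1 and 215 of 3055 in replicate 2, out of 30634 cells in the series. The series holds 11 droplet libraries from wild-type CD1 mice, of which 2 are of E14, 3 of E16, 4 of postnatal day 1 (P1) and 2 of postnatal day 7 (P7). None carries an engineered allele according to the labels. Each embryonic library pooled the cochleae of a litter of either sex, with the roof and the lateral wall of the duct dissected away, so that a library and not an animal is the unit of replication.

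The floor of the embryonic duct is divided along its medial to lateral axis. Kölliker's organ lies medially, the prosensory domain that forms the organ of Corti lies next to it, and the LER lies laterally and later contributes cells of the outer sulcus. Bmp4, which encodes a secreted bone morphogenetic protein (BMP), is a textbook marker of the LER side, and a gradient of BMP signalling patterns this axis. BMP ligands bind paired receptor kinases, which phosphorylate SMAD proteins that switch on target genes such as the Id genes, Msx1 and the feedback inhibitors Smad6, Smad7 and Bambi. Secreted antagonists such as Noggin and follistatin bind BMP or activin ligands outside the cell.

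The 6 gate genes are given as a description only, since they chose the cells. No list of LER markers apart from the gate was used, so the name rests on these genes. Bmp4 averaged 1257 and 625.1 CPM (UMIs per 1000000 UMIs of the cell) in the LER cells of replicates 1 and 2, against 57.9 and 24.2 CPM in all other E14 cells. A median of 7 Bmp4 UMIs in replicate 1 and 3 in replicate 2 lay behind the gate, and 43 of the 451 cells passed it with 1 UMI. Fbln2 was detected in 312 of the cells, Lmo3 in 289 and Bmper in 177, and 84 cells held all 3. The lowest Bmp4 value inside the gate was 1.01, and the highest among the 29 cells that failed on Bmp4 alone was 0.979. The highest Oc90 value inside was 2.41 and the lowest among the 8 cells that failed on Oc90 alone was 2.52. A further 203 cells with Bmp4 at 1.0 or more lay within both limits but showed none of Fbln2, Bmper and Lmo3.

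The gate took deeply sequenced cells. LER cells had a median of 5730 and 6439 UMIs in replicates 1 and 2, against 3390 and 3217 in all other E14 cells, and 173 LER cells and 719 others had more than 3000 genes. Median UMIs were 3616 in the 203 cells without any of the 3 genes and were higher with each further gene, at 4431.5, 5921 and 10674.5 for 1, 2 and 3 of them. Comparisons were therefore repeated with cells of 2000 to 8000 UMIs. In all, the E14 libraries held 10284467 and 14420835 UMIs. Of the E14 cells, 22 carried a barcode found in both libraries, and 2 of these were LER cells.

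Markers of cells from outside the epithelium were low in the LER cells, though not lower than in the others for every list. In replicates 1 and 2 the 10 measured mesenchymal markers summed to 8.80 and 6.24 CPM in LER cells and to 36.0 and 33.3 CPM in the others, with Postn at 0 UMIs in LER cells. The limit of the gate on Oc90 bears on this, since Oc90 cells held 735 of the 754 Postn UMIs of the other cells. Immune markers summed to 5.39 and 3.74 CPM (6.10 and 4.73 CPM in the others), melanocyte markers to 8.77 and 5.01 CPM (5.98 and 4.16 CPM) and endothelial markers to 20.2 and 24.9 CPM (19.4 and 13.7 CPM), the last led by Pecam1 at 20.2 and 23.9 CPM. Neuronal markers summed to 19.9 and 23.2 CPM, against 49.1 and 66.1 CPM in the others. Red blood cell markers summed to 23.65 CPM in replicate 1 and 0.7855 CPM in replicate 2, against 42.85 and 0.9021 CPM. The glial list was the highest, at 247 and 224 CPM against 146 and 157 CPM, and its leading gene in LER cells was Sox10, a transcription factor that the otic epithelium also expresses. Stress genes of dissociation summed to 8074 and 6958 CPM in LER cells and to 8894 and 6629 CPM in the others. The part of these differences in the results was not tested.

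Levels of all other genes were compared between LER cells and the 4802 remaining E14 cells, with 1 mean per class and library (limma on log2(CPM + 10), library as a block, Benjamini-Hochberg adjustment over 8958 genes). At an adjusted p of 0.05, 1040 genes (11.6% of those tested) were higher in LER cells and 1154 (12.9%) were lower. The median log2 fold change over all genes was 0.01. A gene entered a test at a mean of 10 CPM or more over the profiles compared. A gene under 10 CPM in 1 class thus entered through the other class, which set its direction. With means of the deposited logarithms in place of CPM the split was 2994 higher and 549 lower. With cells of 2000 to 8000 UMIs 643 of 8828 genes were higher and 825 were lower. Counts of lists at that depth are to be read beside this loss over all genes. With 2 libraries a gene has 1 residual degree of freedom, and limma drew the variance wholly from the other genes. The p-values and the SE (±) at E14 thus do not measure a gene's own spread between libraries, and values per library are given throughout.

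The largest increase was that of Gata2, a zinc finger transcription factor whose gene lies at chr6:88193891-88207032 of mm10. Its level was 1190 and 960 CPM in the LER cells of replicates 1 and 2 and 155 and 132 CPM in the other cells, a log2 fold change of 2.82 ± 0.07 (SE). The related factor Gata3, which the developing ear requires, stood at 1101 and 996 CPM against 268 and 247 CPM (1.98 ± 0.07). Both LER values lay far above both values of the other cells for each factor. Hs3st1, which encodes a heparan sulfate sulfotransferase, stood at 536 and 462 CPM against 78.2 and 62.7 CPM (2.66 ± 0.09).

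Tac1, the precursor of the neuropeptide substance P, reached 484 and 458 CPM in LER cells and 85.9 and 92.0 CPM elsewhere (2.28 ± 0.09). C1qtnf12, a secreted member of the C1q and TNF related family, was at 575 and 598 CPM against 122 and 116 CPM. Plet1, a surface protein of epithelial progenitors, was at 490.5 and 402 CPM against 95.4 and 86.9 CPM. Cntfr, the ligand-binding receptor subunit for ciliary neurotrophic factor, was at 103 and 80.7 CPM against 9.81 and 9.72 CPM (2.36 ± 0.15). These 4 genes passed the test, but Cntfr was under 10 CPM in the other cells and entered it through the LER cells, where it is high. Lgals1, a galectin, was at 1308 and 1229 CPM against 321.5 and 327 CPM. Col14a1, a fibril-associated collagen, was at 72.0 and 57.3 CPM against 4.64 and 8.97 CPM, and it too entered the test through the LER cells. Rasgef1b, an exchange factor for small GTPases, Igfbp4, an insulin-like growth factor binding protein, and Enpp1, an ectoenzyme that makes pyrophosphate, rose by 2.28, 1.97 and 1.91 on the log2 scale. By summed UMIs Rasgef1b and Enpp1 were at 9.57 and 5.70 CPM in the other cells, also under the limit of the filter.

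The largest decrease was that of Ebf1, a transcription factor at chr11:44617317-45008091, which was at 21.8 and 29.6 CPM in LER cells and 678 and 914 CPM elsewhere (-4.49 ± 0.10). Gsn, which encodes the actin-severing protein gelsolin, was at 12.8 and 7.44 CPM against 359 and 324 CPM. Tecta, a structural protein of the tectorial membrane, was at 38.2 and 34.9 CPM against 475 and 480 CPM. All 3 were lower by a wide margin in each library. Calb1, Clic6, Epyc, Efhd1 and Rgcc fell by 3.63, 3.43, 3.34, 3.28 and 3.26 on the log2 scale. Sparcl1 and Ccer2 completed the 10 genes, at 4.89 and 5.83 CPM and at 2.77 and 1.80 CPM in LER cells. By summed UMIs Calb1, Clic6 and Efhd1 were at 3.95, 7.89 and 5.16 CPM in LER cells. Like Sparcl1 and Ccer2, these genes entered the test through the other cells and could only come out lower. The limit on Atoh1 bears on Ccer2, a hair cell marker. Against other cells held to the same limits of Atoh1 and Oc90, the log2 fold change of Ccer2 was -1.42 in place of -3.08.

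**Figure D1:**
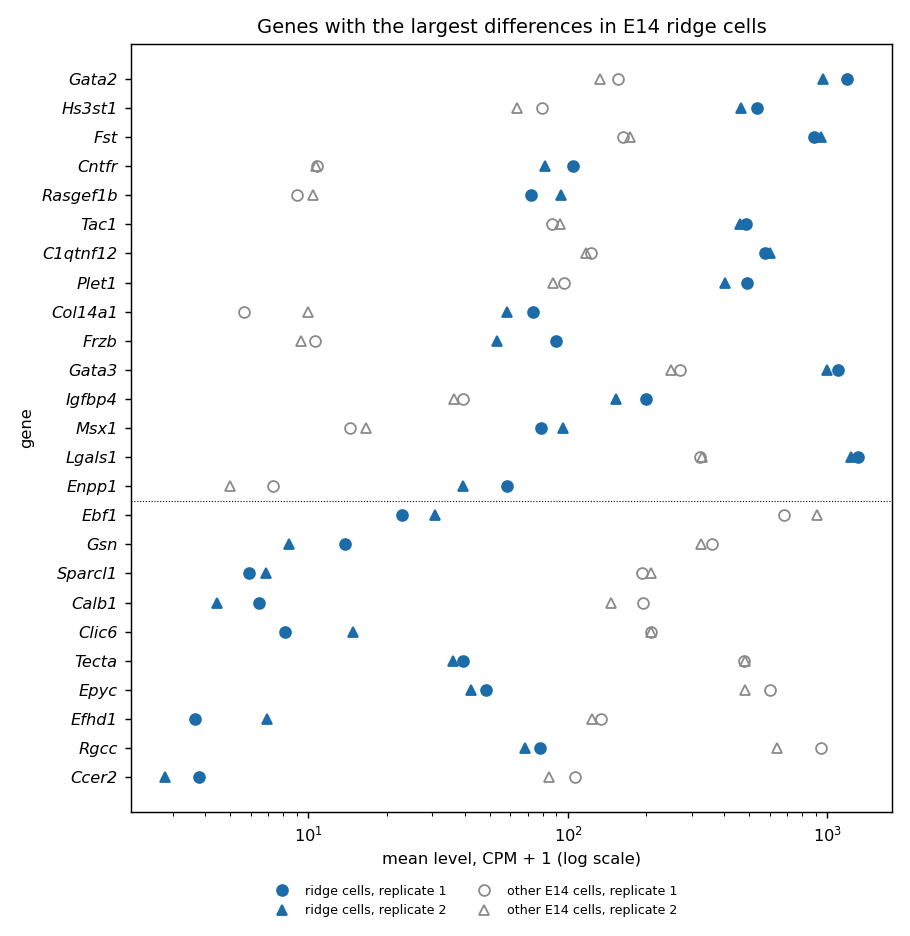
Mean level of the 25 named genes (CPM + 1, log axis) in LER cells (filled) and all other E14 cells (open), with circles for replicate 1 and triangles for replicate 2. In each library the LER cells lie to the right for the 15 genes above the dotted line, from Gata2 to Enpp1, and to the left for the 10 genes below it.

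Genes of the BMP pathway were taken by their roles. Among the ligands other than Bmp4, Bmp7 was at 105 and 132 CPM in LER cells and 56.9 and 58.9 CPM elsewhere (0.91 ± 0.12), while Bmp1, a protease named with the family, stood at 43.5 and 48.0 CPM against 37.2 and 38.0 CPM (adjusted p = 0.286). Of 4 receptors tested, Acvr2b was higher, at 76.9 and 53.7 CPM against 47.7 and 32.9 CPM (adjusted p = 0.000293), and Bmpr1a, Bmpr2 and Acvr2a passed no threshold. The call of Acvr2b was lost with cells of 2000 to 8000 UMIs (adjusted p = 0.094), without cells of more than 3000 genes (0.174) and without the library block (0.126). Of 3 SMAD transducers, Smad5 was lower (-0.47 ± 0.16, adjusted p = 0.0157), although its LER values of 17.0 and 34.5 CPM differed more from each other than the second did from the 38.4 CPM of the other cells. The call of Smad5 was lost without the library block, without cells of more than 3000 genes and within the limits of Atoh1 and Oc90. Smad1 and Smad4 passed no threshold.

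Antagonists differed in both directions. Fst, which encodes the activin and BMP binding protein follistatin, was at 883 and 942 CPM in LER cells and 162 and 172 CPM in the others (2.38 ± 0.07). Nog, the BMP antagonist Noggin, was at 54.3 and 59.8 CPM against 22.9 and 22.7 CPM (1.03 ± 0.15). Sostdc1, a secreted inhibitor of BMP and Wnt signals, was at 51.2 and 53.6 CPM against 31.1 and 19.8 CPM (0.84 ± 0.15). These 3 antagonists passed the test. Fstl1, a follistatin-related protein, was lower, at 308 and 315 CPM against 563 and 518 CPM (-0.77 ± 0.07).

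Targets and feedback genes were mostly higher. Of 15 listed, 11 were tested, 8 rose and 1 fell, with a median log2 fold change of 1.05. Id3 was at 2157 and 1913 CPM against 1023 and 768 CPM (1.19 ± 0.05), Id2 at 2106 and 2217 CPM against 1106 and 975 CPM (1.05 ± 0.05), and Id1 at 561 and 447 CPM against 294 and 194 CPM (1.04 ± 0.08). These genes encode dominant inhibitors of basic helix-loop-helix factors, the family to which Atoh1 belongs. Msx1, a homeobox gene, showed the largest change of the list, at 78.0 and 94.9 CPM against 13.5 and 15.7 CPM (1.97 ± 0.15). The inhibitory SMAD genes Smad6 and Smad7 rose by 1.56 and 1.36 on the log2 scale, and Bambi, a decoy receptor, by 1.18. Id4 was higher by less, at 312 and 300 CPM against 286 and 205 CPM. Hey1 fell by 0.44 on the log2 scale, but its 67.3 CPM in LER cells of replicate 2 lay close to the 69.8 CPM of the others. Without the library block 7 of the 11 were higher, and with cells of 2000 to 8000 UMIs or without cells of more than 3000 genes 8 were. The lower call of Hey1 was lost in all 3.

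The promoters of Id3 and Id2 are shown because these genes were the most abundant of the target list in CPM and rose together. They were read from RefSeq (GRCm38.p6), from 250 bases before to 50 bases after the start that RefSeq gives each gene, and letters in capitals are matches on either strand to GGCGCC, a GC-rich element named for BMP SMADs, or to CAGAC, which holds the SMAD binding core. The 2 motifs do not overlap. The Id3 promoter, chr4:136143572-136143871 on the plus strand, held 2 matches to the core and 0 to the GC-rich element, and the Id2 promoter, chr12:25096043-25096342 on the minus strand, held 1 match to the GC-rich element and 0 to the core. GENCODE starts both genes further upstream (Id3 at chr4:136143497-136145755, Id2 at chr12:25093799-25097140), so that both windows lie inside its gene bounds. The GC-rich element was found in 11.9% and the core in 49.6% of all 32851 promoters of the same length.
Id3: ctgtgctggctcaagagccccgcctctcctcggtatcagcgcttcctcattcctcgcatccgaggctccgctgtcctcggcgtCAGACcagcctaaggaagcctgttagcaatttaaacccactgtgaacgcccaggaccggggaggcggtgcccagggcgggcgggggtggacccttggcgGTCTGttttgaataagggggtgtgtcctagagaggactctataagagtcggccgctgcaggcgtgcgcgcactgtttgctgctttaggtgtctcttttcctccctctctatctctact
Id2: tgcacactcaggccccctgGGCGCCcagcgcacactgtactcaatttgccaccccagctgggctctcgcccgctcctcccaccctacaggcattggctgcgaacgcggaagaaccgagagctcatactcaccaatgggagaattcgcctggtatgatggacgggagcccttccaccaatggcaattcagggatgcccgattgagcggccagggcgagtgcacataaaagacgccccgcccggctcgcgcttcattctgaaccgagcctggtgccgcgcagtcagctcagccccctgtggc

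Transcription factors that pattern the otic epithelium were divided. Of 49 listed, 35 were tested, 12 were higher, 15 were lower and the median log2 fold change was -0.10. After Gata2, Gata3 and Msx1, the largest increases were those of Emx2, at 166 and 90.3 CPM against 44.2 and 31.4 CPM (1.49 ± 0.13), Zbtb20, at 618 and 647 CPM against 247 and 307 CPM (1.17 ± 0.07), and Sall3, at 94.0 and 98.1 CPM against 40.2 and 43.4 CPM (1.03 ± 0.13). Lmx1a, Isl1, Nr2f2, Sox10, Zfhx3 and Pax2 were higher by 0.76 to 0.60 on the log2 scale. Among the classes described below, Sall3 and Isl1 were lower than in Fgfr3-gated cells, and Nr2f2 and Isl1 lower than in Fst-gated cells. Lmx1a and Zfhx3 were higher than in both. Against Oc90 cells Lmx1a and Pax2 were lower, and Emx2, Zbtb20, Sall3, Isl1, Nr2f2 and Sox10 were higher. After Ebf1, the lower factors were led by Gsc, Sox2, Tbx1 and Otx2. Sox2, which the prosensory domain requires, was at 9.59 and 2.61 CPM in LER cells against 76.6 and 29.8 CPM. It entered the test through the other cells, as did Gsc and Otx2. The limit of the gate on Oc90 bears on Gsc and Otx2, since Oc90 cells held 828 of the 841 Gsc UMIs of the other cells and made up 322 of the 333 other cells with an Otx2 UMI. LER cells held 2 UMIs of Gsc and 1 of Otx2. With the other cells held to the limits of Atoh1 and Oc90, Gsc, Tbx1 and Otx2 fell under the filter on low levels and were not tested. Six2, Lmo1, Prdm16, Eya1 and Nr2f1 fell by 1.26, 1.18, 1.12, 1.02 and 0.93 on the log2 scale.

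Kölliker's organ and interdental lists were lower, while other lists depended on the gate or were mixed. Of 12 Kölliker's organ markers tested, 10 were lower, with a median of -3.12. The exception that rose was Otogl, an otogelin-like protein of acellular membranes, at 93.6 and 106 CPM against 35.3 and 36.3 CPM. All 7 interdental markers were lower (median -2.09), among them Otoa, read from 1 UMI in LER cells. Members of both lists under 10 CPM in LER cells, such as Otoa and Calb1, passed the filter on low levels through the other cells. They could only come out lower. Of the 16 prosensory and Notch genes tested, 8 were lower, led by Tectb at 18.1 and 22.3 CPM against 193 and 238 CPM, and 5 were higher, namely Rprm, Ngfr, Isl1, Emid1 and Notch1. Among the classes described below, Isl1 and Rprm were lower than in Fst-gated cells, and Isl1, Ngfr and Emid1 lower than in Fgfr3-gated cells. Notch1 was higher than in Fst-gated cells, and Notch1, Isl1, Ngfr and Rprm higher than in Oc90 cells. Of 5 hair cell markers, 4 were lower, and of 9 roof markers 7 were lower. Prosensory, hair cell and roof genes under 10 CPM in LER cells, such as Sox2, Ccer2 and Sparcl1, also entered through the other cells. The limits on Atoh1 and Oc90 bear on the last pair of lists. Against other cells within the same limits, 3 of 4 hair cell markers were lower (median -0.94), and the roof list turned, with 2 of 4 markers higher, 1 lower and a median of 0.73 in place of -1.64. Slc26a4 and Lmx1a were the roof markers that were higher against all other cells, and Slc26a4 entered that test through the LER cells.

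Ion transport genes of the outer sulcus and lateral wall were mixed at this age, with 5 of 11 higher and 3 lower. Clu, which encodes the secreted chaperone clusterin, was at 11540 and 9398 CPM in LER cells and 3156 and 2602 CPM elsewhere (1.86 ± 0.03), the highest level of any gene described here. Its level was close in the Fst-gated cells described below, at 9732 CPM by summed UMIs against 10560 CPM in LER cells. Clu was still called higher in LER cells in that comparison. Car13 and Car2, carbonic anhydrases, were at 170 and 146 CPM against 49.0 and 41.1 CPM and at 385 and 281.5 CPM against 176 and 148 CPM. Slc26a4, the anion exchanger pendrin, was at 40.5 and 28.6 CPM against 6.36 and 7.07 CPM (1.40 ± 0.18). It was under 10 CPM in the other cells and entered the test through the LER cells. Gjb2, a gap junction connexin, was higher by 0.44 on the log2 scale. Slc12a2, the sodium, potassium and chloride cotransporter of strial cells, was lower, at 18.2 and 18.4 CPM against 119 and 141 CPM, as were Anxa1 and Aqp5. Oc90 cells held 793 of the 798 Anxa1 UMIs of the other cells, so the Oc90 limit bears on Anxa1. Anxa1 also entered the test through the other cells. Against other cells within the limits of Atoh1 and Oc90, 4 of 9 were higher and 1 was lower.

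In the FGF pathway 5 of 16 genes were higher and 3 were lower. Fgfr2, a receptor, was at 90.7 and 100.3 CPM against 21.4 and 26.3 CPM (1.64 ± 0.14), whereas Fgfr3, the receptor of lateral prosensory cells, fell by 0.87 on the log2 scale. Etv5, Spry2, Etv4 and Spred2, which respond to or damp FGF signals, rose by 1.46, 0.94, 0.82 and 0.82. Against the Fst-gated and the Fgfr3-gated cells described below, Etv4 was lower and Etv5, Spry2 and Spred2 were not called. Against Oc90 cells all of them were higher. The ligand genes Fgf10 and Fgf20 were lower, and Fgf20 rested on 2 UMIs in LER cells. By summed UMIs both were under 10 CPM in LER cells and entered the test through the other cells. In the Wnt pathway 8 of 24 genes were higher and 6 were lower. The secreted inhibitors Frzb and Sfrp1 were at 89.1 and 52.5 CPM against 9.56 and 8.36 CPM and at 2299 and 2101 CPM against 1023 and 960 CPM. Frzb was under 10 CPM in the other cells and entered the test through the LER cells. The receptors Fzd6 and Fzd7 were also higher, at 1.14 and 1.00 on the log2 scale, and the agonist Rspo2 and the inhibitor Dkk3 were lower, at -1.24 and -1.27. With cells of 2000 to 8000 UMIs 6 of 23 Wnt genes were higher and 3 were lower (643 and 825 of 8828 over all genes).

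Other signals showed members in each direction. Among IGF genes Igfbp4 and Igfbp5 were higher and Igfbp3 was lower, at 7.03 and 11.4 CPM against 120 and 100.01 CPM. Inhba, the activin subunit, was at 24.0 and 31.5 CPM against 5.89 and 7.17 CPM (1.18 ± 0.18), and entered the test through the LER cells. Among the classes described below, Inhba was lower in LER cells than in Fgfr3-gated cells and higher than in Fst-gated and Oc90 cells. Serpine2, a protease inhibitor, rose by 1.57 on the log2 scale. Of 12 retinoic acid genes 5 were lower, with Crabp1, a retinoic acid binding protein, at 4.05 and 1.05 CPM against 81.4 and 50.8 CPM, and the receptors Rara, Rarg and Rxrg were higher. Crabp1 entered the test through the other cells. With cells of 2000 to 8000 UMIs, 1 of the 12 retinoic acid genes was higher, and 3 of 12 IGF genes were higher in place of 6. Over all genes 643 were higher at that depth in place of 1040. Sema3a, a repulsive guidance cue, was at 72.7 and 76.0 CPM against 11.3 and 13.6 CPM, and Efna1, an ephrin ligand, at 208 and 242 CPM against 74.5 and 66.9 CPM, while the ephrin receptor Epha7 was lower, at 47.0 and 56.0 CPM against 236 and 239 CPM.

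The extracellular matrix list was also split, with 10 of 26 genes higher and 15 lower (median -0.52). Besides Col14a1 and Lgals1, the higher ones included Fbn1, Fbn2 and Sparc, at 2580 and 2538 CPM against 1039 and 1071 CPM for Sparc. Dcn, the proteoglycan decorin, was at 143 and 128 CPM against 688 and 601 CPM. In the basement membrane list Npnt, an integrin ligand, was at 128 and 85.6 CPM against 27.7 and 21.2 CPM (1.74 ± 0.14). With cells of 2000 to 8000 UMIs 1 of 12 genes of this list was higher in place of 4, while over all genes 643 were higher in place of 1040. Frem2 was lower against all other cells (-0.57 ± 0.15) and higher against other cells within the limits of Atoh1 and Oc90 (1.06). Cdh3 was higher and Cdh2 lower among the cadherins, by 1.26 and -1.41 on the log2 scale. Cldn8 was lower (-0.88) and passed no threshold within those limits, where its value was 0.25.

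**Figure D2:**
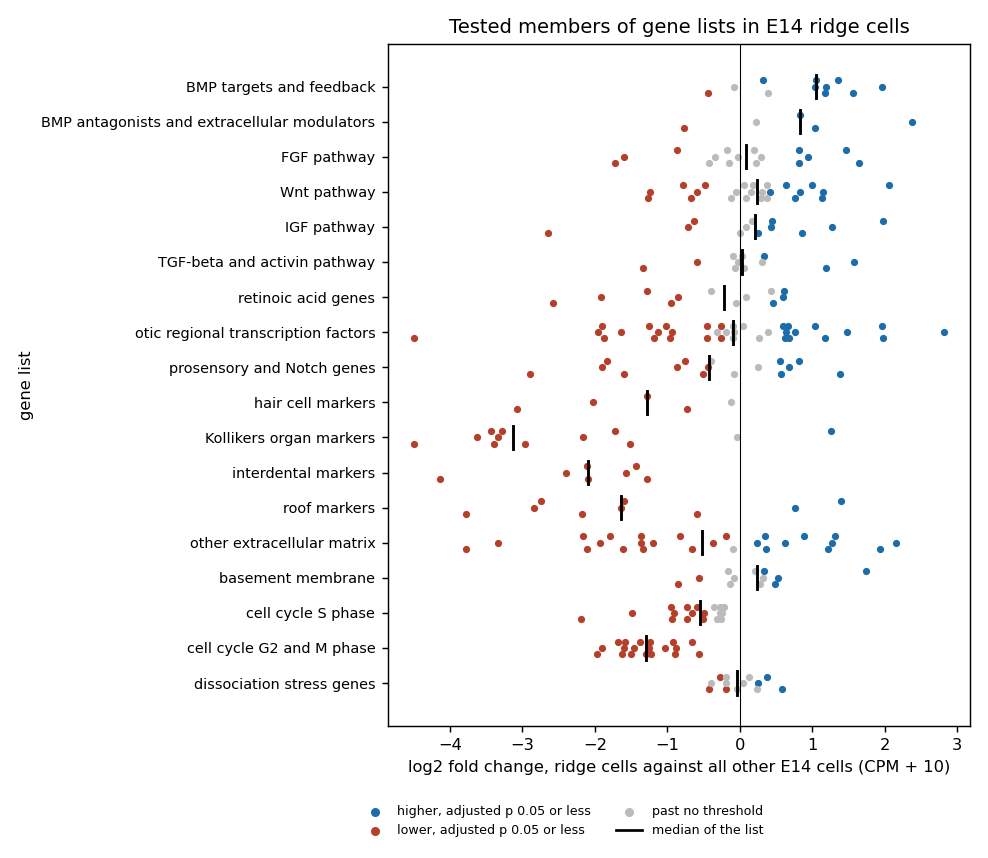
Log2 fold change (CPM + 10) of each tested member of 18 gene lists, LER cells against all other E14 cells, with blue for higher, red for lower and grey for neither at an adjusted p of 0.05, and a black bar at the median of a list. BMP targets lie mostly to the right (median 1.05), while Kölliker's organ, interdental and G2 and M phase lists lie mostly to the left (medians -3.12, -2.09 and -1.29). A member under 10 CPM in 1 class entered through the other class, which set its side.

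Cell cycle genes were lower in LER cells than in all other cells. Of 19 genes of G2 and M phase tested, 19 were lower, with a median of -1.29, and of 18 genes of S phase 11 were lower, with a median of -0.55. Mki67 was at 3.94 and 4.20 CPM against 21.9 and 26.9 CPM, and Top2a, a topoisomerase of dividing cells, at 9.23 and 10.7 CPM against 37.3 and 54.0 CPM. Members of these lists under 10 CPM in LER cells, such as Mki67, passed the filter on low levels through the other cells. Such members could only come out lower. With cells of 2000 to 8000 UMIs 17 of 18 G2 and M genes were lower. After every cell was drawn down to 1500 UMIs, 3.81% and 3.26% of LER cells held at least 3 UMIs of the G2 and M list, with exact 95% intervals of 1.76% to 7.12% and 1.32% to 6.59%. The other cells gave 12.8% (11.3% to 14.4%) and 16.0% (14.7% to 17.4%), Oc90 cells 5.54% and 7.02%, Fst-gated cells 1.21% and 4.49%, and Fgfr3-gated cells 0% and 0% (0 of 40 and 0 of 24, which allow up to 8.81% and 14.2%). Low shares were thus also seen in the other gated classes. Ccnd1, a D cyclin, was higher in LER cells, at 510 and 552 CPM against 279 and 309 CPM. Cdkn1c, a cyclin-dependent kinase inhibitor, was lower, at 673 and 577 CPM against 943 and 868 CPM, though not with means of the deposited logarithms. Among the classes described below, Cdkn1c was higher in LER cells than in Fst-gated and Fgfr3-gated cells and lower than in Oc90 cells. Ccnd1 was called, as higher, only against Oc90 cells. Dissociation stress genes gave 3 higher and 3 lower of 13, with a median of -0.04.

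Other classes, 3 in number, were set beside the LER cells, each gated on other genes. The first held 432 cells with Fst at 1.0 or more and Bmp4 at 0, the second 64 cells with Fgfr3 at 1.0 or more, Prox1 or Sox2 detected and Bmp4 at 0, and the third 913 cells with Oc90 at 2.5 or more. Atoh1 was at 0 in all 3 classes and Oc90 under 2.5 in the first and the second, which bears on hair cell and roof markers. Gate genes of either class were left out of each comparison. The Fgfr3-gated class had 40 and 24 cells in the replicates and is the least precise. Since the LER cells enter every comparison, the 3 results are not independent of each other.

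Against the Fst-gated cells, 420 of 8851 genes (4.75%) were higher in LER cells and 468 (5.29%) were lower. Fgfr2 led the higher genes, at 90.7 and 100.3 CPM against 3.22 and 14.7 CPM (2.54 ± 0.24), followed by H19, Rasgef1b, Gata2 and Cthrc1. The mean of Fgfr2 over the Fst-gated libraries was under 10 CPM, as was that of Rasgef1b by summed UMIs (8.85 CPM). These genes passed the filter on low levels through the LER cells, which set their direction. Gata2 was at 200 and 271 CPM in the Fst-gated cells. Gata3 differed by less, at 702 and 767 CPM in the Fst-gated cells (0.51 ± 0.07), and Tac1 was at 521 and 612 CPM in them, above both LER values. The lower genes were Ebf1, Tectb, Fgf20, Igfbp3 and Ntf3, a neurotrophin, at 31.5 and 24.0 CPM against 393 and 306 CPM. Of the 22 prosensory and Notch genes tested, 17 were lower and 1 was higher (median -1.44), with Sox2 at 252.5 and 51.3 CPM and Jag1 at 25.7 and 26.0 CPM in the Fst-gated cells. Members under 10 CPM in LER cells, such as Sox2 and Fgf20, entered this test through the Fst-gated cells and could only come out lower. Of 12 BMP targets 9 were higher and 1 was lower (median 0.79). Id3 was at 1090 and 886 CPM in the Fst-gated cells (1.04 ± 0.06), Smad7 at 25.5 and 29.5 CPM (1.54 ± 0.21) and Tbx3 at 5.29 and 4.75 CPM against 29.5 and 29.9 CPM. Tbx3 entered this test through the LER cells. Id2 differed by 0.17 ± 0.06 and Hey1 was lower, by -1.61. Without the library block 6 of the 12 were higher, and with cells of 2000 to 8000 UMIs 5 were. Cell cycle lists gave 0 of 18 S phase genes called by limma (3 at an unadjusted p under 0.05) and 1 of 7 of G2 and M phase, Cenpa, which was higher. No G2 and M gene was called without the library block or with cells of 2000 to 8000 UMIs.

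Against the Fgfr3-gated cells, 222 of 8735 genes (2.54%) were higher and 217 (2.48%) were lower, 5.03% in all. These 439 calls became 86 without the library block, 129 without the mean trend and 218 with cells of 2000 to 8000 UMIs. Gata2 showed the largest difference, at 11.4 and 20.6 CPM in the Fgfr3-gated cells, far below both LER values. Tac1, Lgals1 and H19 followed, and Lgals1 was at 53.8 and 114 CPM in them. Cthrc1, a secreted protein with a collagen repeat, had 0 UMIs in the 64 cells, and with a floor of 3 UMIs over that class it was at least 13.7-fold higher in LER cells. It entered this test through the LER cells. The lower genes were Ebf1, Ccer2, Tectb, Pcp4 and Mdm1, and all 5 hair cell markers tested were lower (median -3.04), though 3 of 5 were without the library block or with cells of 2000 to 8000 UMIs. Few cells carried some of these levels, since the Fgfr3-gated class held 121 Ccer2 UMIs in 5 of 64 cells and 35 Pou4f3 UMIs in 8. By summed UMIs Ccer2 and Pou4f3 were each at 3.04 CPM in LER cells. Both entered this test through the Fgfr3-gated cells and could only come out lower. Bmp2 was at 165 and 42.8 CPM in the Fgfr3-gated cells against 4.12 and 1.85 CPM in LER cells, and entered this test through the Fgfr3-gated cells. Of 11 BMP targets 6 were higher and 1, Hey1, was lower, with Id3 at 1366 and 1222 CPM (0.65 ± 0.11) and Msx1 at 4.30 and 0 CPM in the Fgfr3-gated cells. Msx1 entered this test through the LER cells. Id1 and Id2 differed by 0.26 ± 0.18 (adjusted p = 0.574) and 0.27 ± 0.11 (adjusted p = 0.131). Without the library block 1 target was higher and 1 lower, and with cells of 2000 to 8000 UMIs 3 were higher and 1 lower. No call was made by limma among 17 S phase and 8 G2 and M genes, with 1 and 3 at an unadjusted p under 0.05.

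Against the Oc90 cells, 1277 of 8979 genes (14.2%) were higher and 1230 (13.7%) were lower, 27.9% in all. Of 13 dissociation stress genes 9 were lower and 1 was higher in this comparison (median -0.48), with sums of 8074 and 6958 CPM in LER cells and 9661 and 8485 CPM in Oc90 cells, and their part in the other differences was not tested. Tac1, Fst, Itih5, Gata3 and Plet1 led the higher genes. Gata3 was at 90.6 and 79.9 CPM in the Oc90 cells (3.47 ± 0.09), whereas Gata2 was at 336 and 306 CPM (1.71 ± 0.07). Fgfr2 was higher in LER cells than in both other classes, in tests that it entered through the LER cells. In the Oc90 cells it was at 89.2 and 97.8 CPM (0.03 ± 0.13, adjusted p = 0.911). The lower genes were Ttr, Ecel1, Dapl1, Slc6a15 and Meg3, and Ttr and Dapl1 rested on 1 UMI each in the LER cells. By summed UMIs Ttr, Ecel1, Dapl1 and Slc6a15 were under 10 CPM in LER cells, the limit of the filter, which they passed through the Oc90 cells. Of 11 BMP targets 9 were higher and 2, Id4 and Tbx3, were lower (median 0.82). Id2 was at 784 and 709 CPM in the Oc90 cells (1.52 ± 0.06) and Smad6 at 29.2 and 20.2 CPM (1.68 ± 0.16). Of the 10 G2 and M genes tested 6 were lower in LER cells. Any of these under 10 CPM in LER cells entered through the Oc90 cells, which set its direction.

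**Figure D3:**
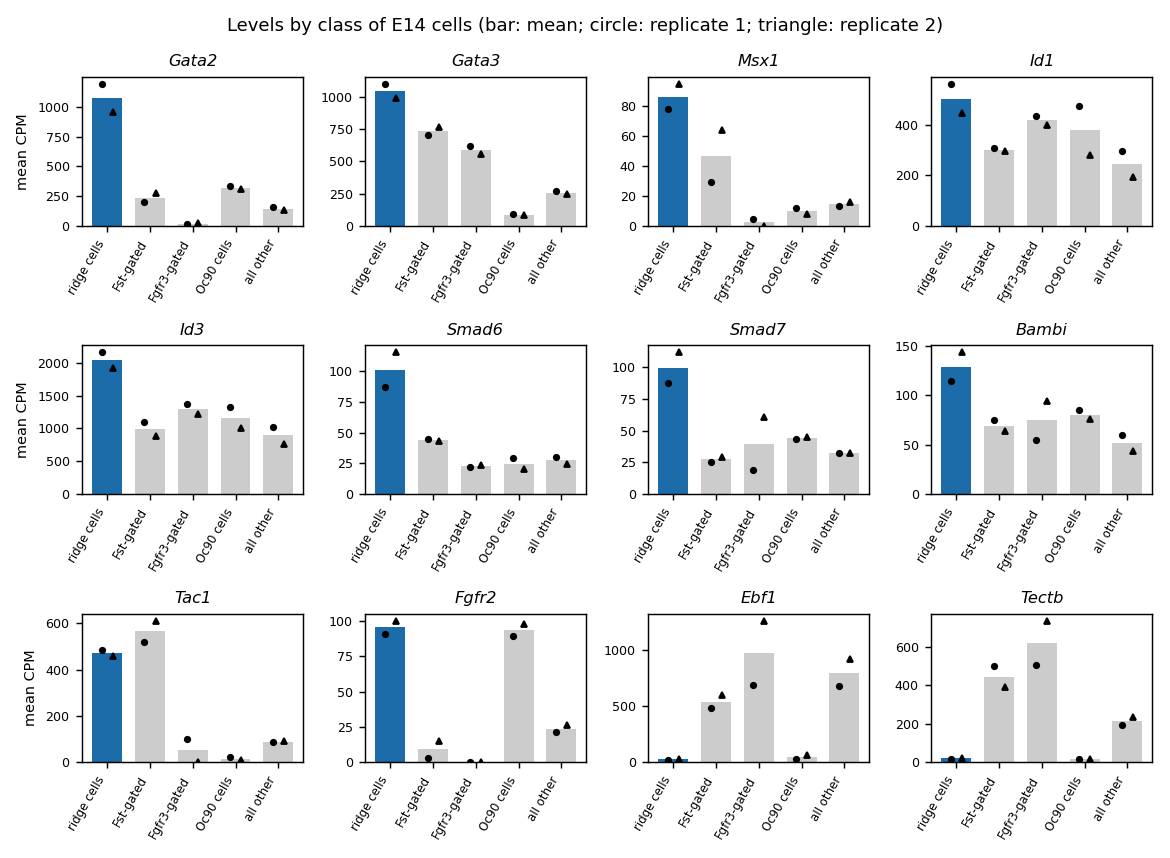
Mean level (CPM) of 12 genes in LER cells, Fst-gated, Fgfr3-gated and Oc90 cells and all other E14 cells, with bars for the mean of 2 libraries, circles for replicate 1 and triangles for replicate 2. LER cells hold the highest points of Gata2, Id3, Smad6 and Smad7, while Tac1 was as high in Fst-gated cells and Fgfr2 in Oc90 cells.

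The LER cells were compared with each other by shares of cells with a UMI after thinning to 1500 UMIs, a description that covers counting error only. Gata2 was detected in 76.7% and 76.7% of LER cells (97.5% and 97.2% before thinning), with exact 95% intervals of 70.8% to 81.9% and 70.5% to 82.2%. The other E14 cells gave 12.9% and 11.8%, and the Fgfr3-gated cells 0% (0 of 40, which allows up to 8.81%) and 4.17%. Gata3 was detected in 76.7% and 74.4% of LER cells, Id3 in 92.8% and 93.5% and Clu in 99.6% and 94.4%. The other cells gave 24.8% and 23.0% for Gata3, 64.3% and 57.4% for Id3 and 79.7% and 73.4% for Clu, so that Clu was common in both. Tac1 was detected in 23.3% and 24.2% of LER cells (33.1% and 34.0% before thinning) and Msx1 in 11.4% and 13.5%, against 3.82% and 5.14% and 1.73% and 1.90% of the other cells. Ebf1 was detected in 3.81% and 4.65% of LER cells, against 53.0% and 58.6%. A Tac1 mean of 484 CPM thus came from a minority of cells with detected transcripts.

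The leading axis of variation among LER cells, the first principal component of the deposited values, held 2.18% and 2.61% of the variance in replicates 1 and 2. Across 236 and 215 cells it followed log10 of the UMIs of a cell, with Pearson r of -0.97 in each library. Its loadings correlated by 0.48 between libraries across 6670 genes, and 17 and 31 of the 100 leading genes at its ends were shared. After thinning to 1500 UMIs the first component held 0.852% and 0.992% and still followed depth, with r of -0.22 and -0.60, and 12 and 11 of the 100 leading genes at its ends were shared between libraries. The correlation of the thinned loadings between libraries was 0.10 across 2194 genes. The thinned axis was therefore mostly not shared by the libraries, and no subgroups of LER cells are described from either axis.

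The same gate took fewer cells at later ages. It took 10.7% of E14 cells in replicate 1 (exact 95% interval 9.47% to 12.1%) and 7.04% (6.156% to 8.003%) in replicate 2. At E16 it took 3.85%, 2.88% and 4.82% of the 3 libraries, at P1 2.67%, 0.688%, 0.596% and 1.05%, and at P7 0.451% and 0.749%. After thinning, E14 gave 5.51% and 2.52% and E16 gave 2.41%, 1.42% and 2.85%, so that the thinned share of E14 replicate 2 lay inside the range of E16. The E14 libraries differed from each other in Bmp4 itself, also in cells outside the gate.

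**Figure D4:**
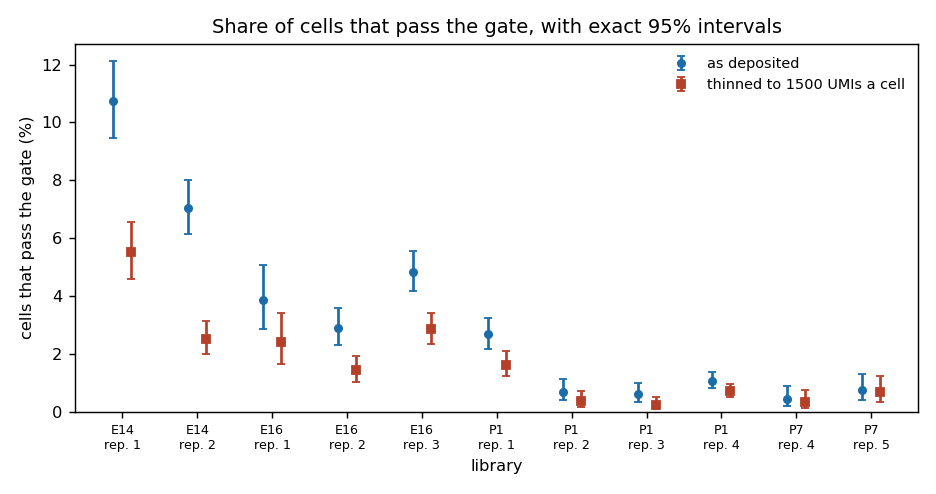
Share of cells that pass the gate (%) in each of the 11 libraries, as deposited (blue circles) and after thinning each cell to 1500 UMIs (red squares), with exact 95% intervals for counting error. The E14 libraries stand highest as deposited, at 10.7% and 7.04%, but the thinned E14 replicate 2, at 2.52%, lies among the thinned E16 libraries.

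The gated cells of E16 (48, 81 and 188 cells) were compared with the LER cells of E14. Age and library collection cannot be told apart, and the summed ribosomal protein genes were at 197500, 191600 and 169800 CPM at E16 against 108100 and 110100 CPM at E14, with the mitochondrial genes at 21110, 19400 and 13630 CPM against 6426 and 8617 CPM. The other cells of E16 were also above those of E14, at 185800, 179700 and 168400 CPM against 101600 and 105900 CPM for ribosomal genes and at 20670, 17440 and 14700 CPM against 6697 and 8873 CPM for mitochondrial genes. Of 8955 genes 115 (1.28%) were higher at E16 and 14 (0.156%) were lower, 1.44% in all, and the median log2 fold change was -0.18. With means of the deposited logarithms the split was 144 higher and 880 lower. Single libraries decided this number, since without replicate 3 of E16 678 genes were called, 330 higher and 348 lower, and without replicate 2 of E16 26 were, 26 higher and 0 lower (1147 in either direction at an unadjusted p under 0.05 by limma). Without replicate 1 of E14, replicate 2 of E14 or replicate 1 of E16, 68, 78 and 65 genes were called, of which 2, 2 and 3 were lower. Without the filter on low values 0 genes were lower (24 called, 1978 at an unadjusted p under 0.05). The change with age differed between gated and other cells for 12 of 9062 genes (0.0883% higher and 0.0441% lower in the difference).

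Isl2, a LIM homeobox factor, was lower at E16 in the gated cells, going from 152.5 and 167 CPM to 31.8, 40.4 and 36.5 CPM (-1.88 ± 0.28, adjusted p = 0.00702), and was at 96.8 and 125.5 CPM and then 67.95, 90.85 and 65.95 CPM in the other cells. Scara3, a scavenger receptor family member, went from 302 and 272 CPM to 117, 102 and 131 CPM (adjusted p = 0.0338), while the other cells lay between 92.2 and 127 CPM at both ages. Wnt7b, a Wnt ligand, went from 216 and 221 CPM to 82.1, 51.6 and 96.8 CPM (adjusted p = 0.0435). Rxrg, Mmp14, Klf6, Ewsr1 and Hmgb3 were the other genes named as lower. These calls were fragile. Isl2 passed the threshold without replicate 1 or replicate 3 of E16 and not without any other library, and Scara3 and Wnt7b passed it only when replicate 3 of E16 was the library left out. No call of a lower gene was left without replicate 2 of E16, where the adjusted p was 0.0558 for Isl2, 0.207 for Scara3 and 0.207 for Wnt7b.

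Among the genes named as higher at E16, Usmg5, Atp5k, Wdr89, AC121965.1, Snhg3 and Fam159b differed by 2.43, 2.25, 2.30, 2.48, 2.49 and 2.33 on the log2 scale in the gated cells and by 2.40, 2.21, 2.34, 2.47, 1.95 and 1.99 in the other cells of the same libraries. Epyc rose from 47.3 and 41.2 CPM to 312, 471 and 309 CPM in the gated cells, and was at 602 and 481 CPM and then 1788, 2302 and 2390 CPM in the others. AC167229.2, a transcript known by its clone name, rose from 7.64 and 11.7 CPM to 120, 243 and 341 CPM in the gated cells and reached at most 7.90 CPM in the others, a difference with an adjusted p of 0.0102 that was lost at a pseudocount of 1 CPM, without the filter, without the mean trend and when any library other than replicate 1 of E16 was left out. AC167229.2 passed the filter on low levels through the gated cells of E16, where it is high, so its p-value is no support for the difference.

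BMP targets showed no call with age by limma, with 0 of 11 past the threshold and 1 at an unadjusted p under 0.05, in a comparison that called 1.44% of all genes, so the count says nothing of these targets. Id3 went from 2157 and 1913 CPM to 1353, 1308 and 1578 CPM (-0.53 ± 0.18, adjusted p = 0.213), and Id1 was at 769, 649 and 298 CPM at E16, on both sides of its E14 values. Gata2 was at 758, 806 and 590 CPM at E16, below both E14 values of 1190 and 960 CPM (adjusted p = 0.232), and Gata3 at 1042, 910 and 1051 CPM, which overlapped its E14 values. Tac1 was at 354, 87.8 and 397 CPM at E16. The gated cells of P1 and P7 had fewer cells, 8 to 100 in a library, and were not tested.

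**Figure D5:**
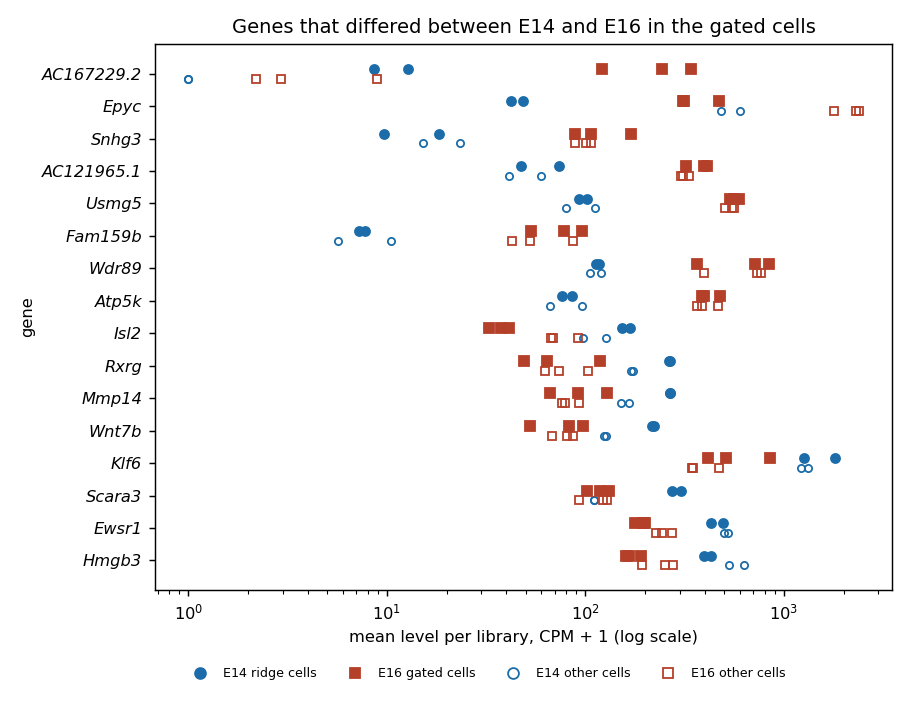
Mean level per library (CPM + 1, log axis) of the 16 genes named for age, in gated cells (filled) and all other cells (open) of E14 (blue circles) and E16 (red squares). Usmg5, Wdr89 and Atp5k move alike in both kinds of cell, whereas AC167229.2 lies between 120 and 341 CPM in gated cells of E16 and at 7.90 CPM or less in the other cells.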

How the data were processed

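The authors aligned droplet reads to mm10 with Cell Ranger 2.1.1 and filtered cells in Seurat 2.0, and deposited natural log values, ln(1 + 10000 × share of the UMIs of a cell). Multiplied back, the deposited values gave whole UMIs with a tolerance of 2%. The libraries came from wild-type CD1 mice, and the E14 tables hold more cells than the text of the study gives. Values were turned into CPM and averaged per class and library. A gene entered the test at a mean of 10 CPM or more over the profiles compared, so that a gene low in 1 class could enter through the other. Tests used limma 3.58.1 (mean trend, log2(CPM + 10), Benjamini-Hochberg) in R 4.3.3. The fits were also run on simulated data, with an outcome not given here. Both classes of a library come from the same tube, which pairs them, and their deviations correlated by 0.45, 0.25, 0.15 and 0.34 in the 4 comparisons at E14. Named genes are those with the largest change each way at an adjusted p of 0.05 with both libraries moving the same way, besides listed genes. Mitochondrial, ribosomal, haemoglobin, Gm-numbered and Rik genes, Xist, Tsix and Malat1 are not named. Members and gene lists were chosen with earlier results of these data known. No doublet caller was run, and cells of more than 3000 genes were left out in an alternative. Gene positions are from GENCODE on GRCm38.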

Additional observations from a re-analysis of the deposited data

Results flagged for a closer look

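The change from E14 to E16 differed between gated cells and all other cells of the same libraries for 12 of 9062 genes (0.132%, 8 higher and 4 lower) by an interaction term in limma, and 8 of them could be named. The difference of the 2 changes was 3.11 for AC167229.2, 1.89 for Apoe, 1.80 for Npnt, 1.55 for Mest and 1.17 for Hmga2, and -2.82 for Lhfpl5, -1.73 for Clu and -0.88 for Sparc, on the log2 scale. AC167229.2 passed the filter on low levels through the gated cells of E16, where it was high, so its call is no support for a difference. Apoe, a lipid carrier, went from 128 and 85.9 CPM to 459, 283 and 735 CPM in gated cells and stayed between 45.8 and 84.1 CPM in the others (adjusted p = 0.0102). Npnt, the integrin ligand that was already higher in E14 LER cells, went from 128 and 85.6 CPM to 278, 283 and 260 CPM and in the others from 27.7 and 21.2 CPM to 14.8, 11.6 and 16.9 CPM. Mest went from 425 and 377 CPM to 627, 642 and 515 CPM in gated cells and from 186 and 185 CPM to 87.6, 81.7 and 94.9 CPM in the others. Hmga2 in the other cells went from 179 and 184 CPM to 79.6, 70.2 and 77.2 CPM while the gated cells were at 387.5 and 428 CPM and then 500.1, 387 and 356 CPM. Lhfpl5, a hair cell gene, had 0 UMIs in the E14 LER cells and was at 0, 4.54 and 2.53 CPM in gated cells of E16, against 2.08 and 2.97 CPM and then 142, 113 and 58.0 CPM in the others. The gate asks for Atoh1 at 0 at both ages and so keeps hair cells out of the gated class. Lhfpl5 passed the filter on low levels through the other cells. The gate thus bears on its value, and its call is no support for a difference. Clu went from 11540 and 9398 CPM to 4005, 2528 and 6834 CPM in gated cells and from 3156 and 2602 CPM to 2586, 3095 and 6679 CPM in the others, and replicate 3 of E16 was the highest of its age in both. Sparc was also highest of its age in replicate 3 of E16, in both kinds of cell. No call was left at a pseudocount of 1 CPM, without the filter on low values, without the mean trend or without replicate 2 of E16, and the cause was not tested.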

How the results depend on the processing

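Counts are of genes called. Without the library block they were 947 in place of 2194 against all other cells (all 947 called in both), 383 in place of 888 against Fst-gated, 86 in place of 439 against Fgfr3-gated and 1371 in place of 2507 against Oc90 cells. Without a mean trend they were 395, 129 and 1611 in the last 3. With cells of 2000 to 8000 UMIs they were 1468, 525 and 218 in the first 3, and without cells of more than 3000 genes 1384 in the first. Means of the ln values gave 3543. For E16 against E14 (129), the replicate number as a replicate block gave 1225, no filter 24, ln means 1024 (144 higher, 880 lower) and no mean trend 41, and leaving out a library gave 26 to 678. The numbers share no pairing between ages (correlations -0.10 and 0.02). For the age difference between classes (12), a pseudocount of 1 CPM, no filter and no mean trend gave 0 (465, 1226 and 473 at an unadjusted p under 0.05), summed UMIs 23, ln means 38 and cells of 2000 to 8000 UMIs 23, and leaving out a library 0 to 42 (0 without E16 replicate 2, with 619 at an unadjusted p under 0.05). At E14 leaving out a library leaves values with no test.

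Among the named and listed genes followed through the alternatives, reversed values were those of Cdkn1c with ln means (0.062) and, within the limits of Atoh1 and Oc90, of Cldn8 (0.25), Frem2 (1.06) and Zfp36 (0.17). Over all genes, 1819 were called both in the main fit and within those limits, and 1815 of them kept their sign. Gate shares thinned to 1500 UMIs were 5.51% and 2.52% at E14, 2.41%, 1.42% and 2.85% at E16 and 1.63%, 0.367%, 0.238% and 0.697% at P1. With Bmp4 at 1.5 or more they were 5.34% in E14 replicate 2 and 2.57% and 2.06% in E16 replicates 1 and 2. The thinned principal component was chosen after seeing the data. The causes of these shifts were not tested. The variance of 2 libraries rests on other genes, and the depth of the gated cells limits what is said of rare transcripts.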
